A study of Mus musculus with 17 samples.

Results

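Polo-like kinases 2, 3 and 5 (Plk2, Plk3 and Plk5) and Sipa1l1, a synaptic protein that Plk2 acts on, were followed in 17 hippocampal RNA libraries of adult mice. These 4 genes were taken by symbol from the 55471 genes of the count table. Each was found once, and all 4 had counts in every library. The series asked how the hippocampus responds to pentylenetetrazol (PTZ), a blocker of GABA-A receptors that provokes seizures, after kindling, and whether that response depends on CBP, the lysine acetyltransferase encoded by Crebbp.

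All mice were C57BL/6 by the labels and C57BL/6J by the methods, were aged 3 to 6 months, and received tamoxifen, the controls included. CBP-ifKOs carried a floxed Crebbp and the transgene Camk2a-creERT2, which is active in excitatory neurons of the forebrain, so other hippocampal cells keep an intact gene and the recombined allele yields a truncated protein. Controls were littermates that the methods describe as lacking creERT2, although their labels name the transgene. Sal mice were never kindled and were given saline. PTZ0 mice received the kindling injections, PTZ at 45 mg/kg on alternate days, and were given saline a week later. PTZ45 mice received the same injections and were given PTZ at 45 mg/kg in place of the saline. The paper reports that the kindling injections came to provoke seizures in all controls, whereas no CBP-ifKO reached the stage of progressive seizures. Hippocampi were collected 45 min after the last injection. There were 3 libraries in each of the 6 groups except Control PTZ45, which had 2.

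Plk2, also known as SNK, is a kinase whose gene is switched on by synaptic activity in hippocampal neurons. Its protein phosphorylates Sipa1l1, also known as SPAR, a scaffold of dendritic spines that binds PSD-95 and switches off the small GTPase Rap. Once primed by Cdk5 and phosphorylated by Plk2, Sipa1l1 is ubiquitinated by an SCF ligase that contains beta-TrCP and is degraded, a route by which active neurons weaken or lose spines. Plk3 is known mostly for stress and DNA damage responses, and Plk5 is a brain-expressed member of the family that lacks kinase activity. RNA counts show none of the protein steps.

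On GRCm38, Plk2 (ENSMUSG00000021701) lies at chr13:110395046-110400844 on the plus strand. Plk3 (ENSMUSG00000028680) lies at chr4:117128655-117133963 on the minus strand, and Plk5 (ENSMUSG00000035486) at chr10:80356459-80365489 on the plus strand. Sipa1l1 (ENSMUSG00000042700) spans chr12:82169320-82451786 on the plus strand. All 4 are annotated as protein coding, and Plk3 is the member that overlaps another gene: Tctex1d4, on the opposite strand, shares 84 exonic bases with it and had 2 to 22 counts per library, against 19 to 94 for Plk3. The strand setting of the counting is not given in the sources used here, so a few reads of these genes cannot be told apart.

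The 3 kinase promoters are shown with matches to a motif of CREB, a factor that can recruit CBP. Plk2 and Plk3 hold such letters and Plk5 does not, and their part in the differences below was not tested. The printed windows are the 250 bases before the RefSeq start of each gene, from RefSeq's GRCm38.p6 annotation, in the direction of transcription, with matches to TGACGTCA (the full cAMP response element, CRE) or to its core, TGACG, in capitals.
Plk2, chr13:110394794-110395043, plus strand: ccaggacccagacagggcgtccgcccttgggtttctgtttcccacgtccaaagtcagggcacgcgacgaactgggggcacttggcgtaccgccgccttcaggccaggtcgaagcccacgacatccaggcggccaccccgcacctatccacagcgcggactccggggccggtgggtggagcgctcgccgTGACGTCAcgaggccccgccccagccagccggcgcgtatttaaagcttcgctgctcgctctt
Plk3, chr4:117133964-117134213, minus strand: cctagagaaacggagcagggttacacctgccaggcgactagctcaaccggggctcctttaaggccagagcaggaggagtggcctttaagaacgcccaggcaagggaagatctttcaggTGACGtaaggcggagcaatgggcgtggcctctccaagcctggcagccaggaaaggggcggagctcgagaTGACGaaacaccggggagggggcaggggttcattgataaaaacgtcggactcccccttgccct
Plk5, chr10:80356209-80356458, plus strand: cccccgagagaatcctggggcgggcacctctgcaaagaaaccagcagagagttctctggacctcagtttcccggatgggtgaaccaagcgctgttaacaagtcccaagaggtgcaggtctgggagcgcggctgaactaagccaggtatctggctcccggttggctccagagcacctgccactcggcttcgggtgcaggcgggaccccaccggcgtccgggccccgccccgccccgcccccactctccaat

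Both strands were searched. The Plk2 window held 1 full CRE, 55 to 62 bases before the start, whose letters also count as a core on each strand. A full CRE stood in 508 of 32817 promoter windows of this length (1.55%). Plk3 held 2 CRE cores, at 59 to 63 and 128 to 132 bases before its start, and a core stood in 17.75% of windows. Neither an AP-1 site (TGANTCA, in 6.75% of windows) nor a CArG box, the core that serum response factor binds (in 1.47%), was found in any of the printed windows, and Plk5 held none of the motifs. Sipa1l1 has 2 RefSeq windows. Neither held any of these motifs, and they are not printed because both lie inside the GENCODE gene. A match is a description of letters only, and binding was not measured in these libraries.

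The libraries held 5831992 to 18735643 counts. The 30 marker genes of 10 hippocampal and neighbouring cell types were at 0 in no library. Crebbp, the targeted gene, had normalized counts of 1824 to 2429 in the controls and of 1061 to 1337 in CBP-ifKOs, without overlap, and was lower by 0.84 on the log2 scale over all treatments (SE 0.06, adjusted p = 3.41e-41). Normalized counts are counts divided by DESeq2 size factors over the 17 libraries. Choroid plexus markers (Ttr, Folr1 and Kl) summed to 10488 to 42835 normalized counts in 5 libraries, 1 in every group but Control PTZ45, and to 700.8 and 826.9 in the Control PTZ45 libraries. The 7 comparisons in which a member was called were also computed without those 5 libraries, a choice made after the data were seen. Lane follows group: both Control Sal and Control PTZ0 were run on lane 3, Control PTZ45 and CBP-ifKO Sal on lane 4, and CBP-ifKO PTZ0 and PTZ45 on lane 5. Within each treatment the genotypes were on different lanes, so genotype and lane cannot be told apart there.

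Per kilobase of exon, Plk2 was the highest of the polo-like kinases, with a mean of 815 normalized counts per kb over the 17 libraries (SD 226). Sipa1l1 followed at 314 per kb (SD 47.0). Plk5 averaged 53.0 per kb (SD 12.3) and Plk3 26.2 (SD 6.03). Among the relatives, Plk4, which drives centriole duplication, averaged 14.1 per kb, and Plk1, a mitotic kinase, 3.31, at 3 to 13 raw counts per library. Of the SIPA1 family of RapGAPs, Sipa1l2 averaged 128 per kb, Sipa1l3 66.9 and Sipa1 20.6, all below Sipa1l1 in every library.

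**Figure D1:**
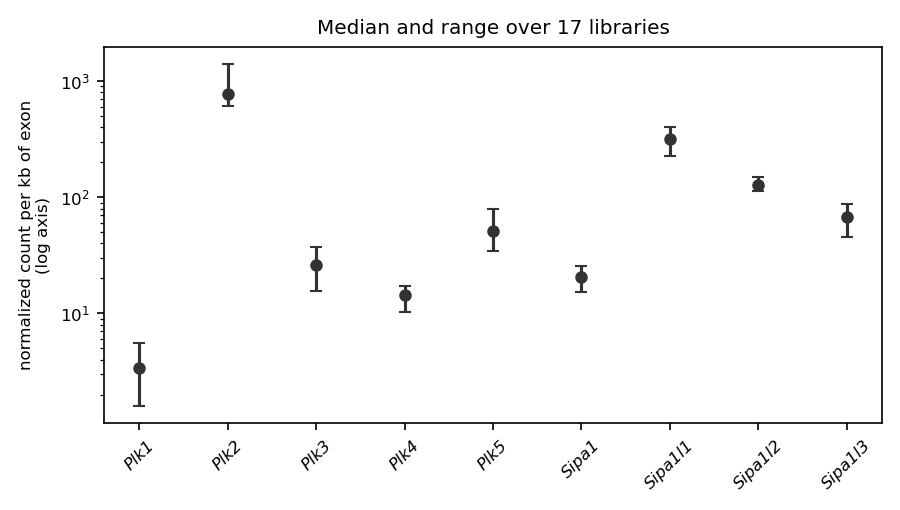
Levels of the polo-like kinases and the SIPA1 family, as normalized counts per kilobase of exon on a log axis. Points are medians and bars the lowest and highest of 17 libraries. Plk2 lies highest, with a median of 772 per kb, and Plk1 lowest, at 3.36.

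Plk2 RNA rose after PTZ in controls and was lower in CBP-ifKOs, most clearly after PTZ. In Control Sal it stood at 3485, 3466 and 3518 normalized counts, and in Control PTZ0 at 3350, 3668 and 3653. Control PTZ45 had 6196 and 6288, well above every other library of the series. In CBP-ifKO Sal the values were 2872, 2955 and 3576, in CBP-ifKO PTZ0 2949, 3252 and 2732, and in CBP-ifKO PTZ45 3234, 3368 and 3669. These 9 CBP-ifKO libraries overlapped with the saline-injected controls and stayed far below the PTZ-injected controls. In the order of group means, Control PTZ45 (6242 ± 65, SD, n = 2) stood apart. Each of the other 5 groups overlapped with its neighbour, from Control PTZ0 (3557 ± 180, n = 3) down to CBP-ifKO PTZ0 (2978 ± 261, n = 3).

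**Figure D2:**
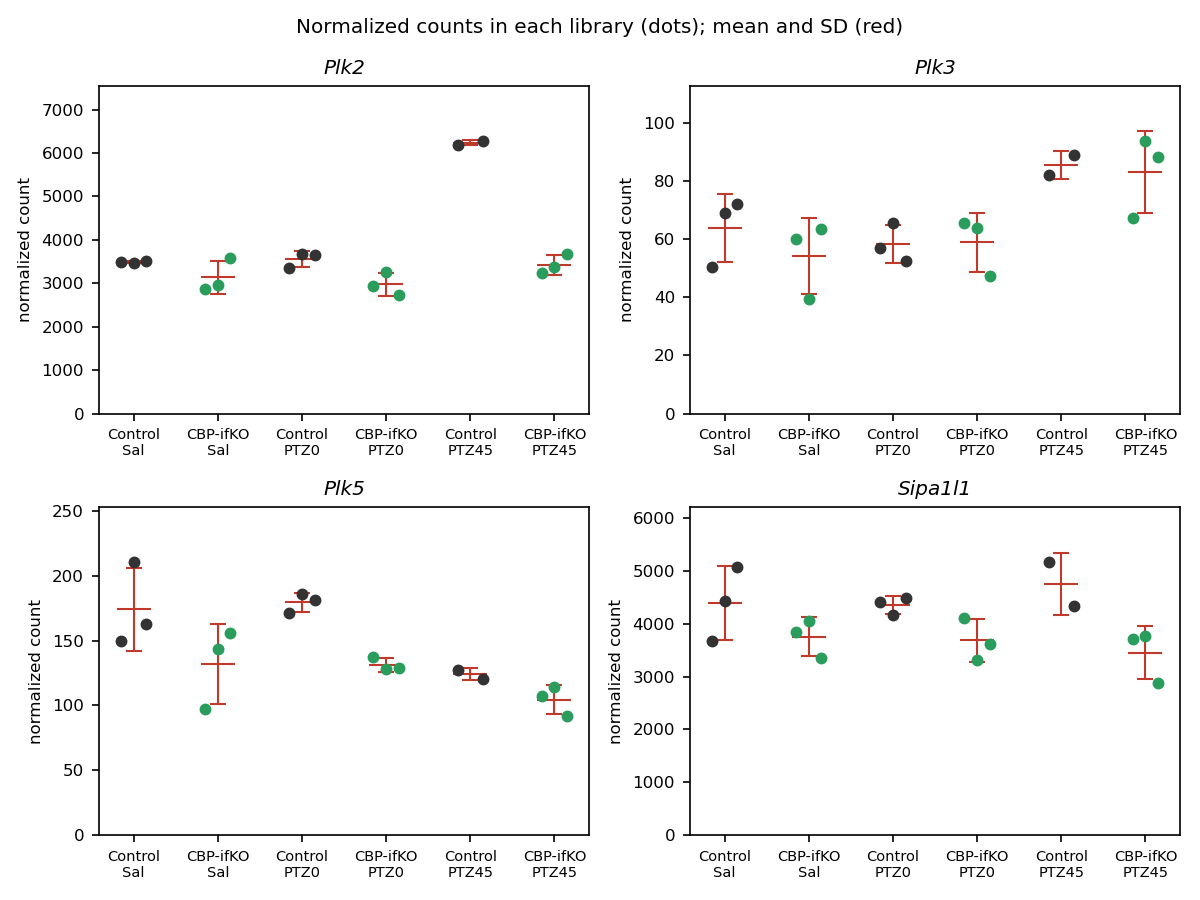
Normalized counts of Plk2, Plk3, Plk5 and Sipa1l1 in each library, with controls in black, CBP-ifKOs in green, and the mean and SD of each group in red. The 2 Control PTZ45 libraries stand at 6196 and 6288 for Plk2, and the other 15 lie between 2732 and 3669.

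Fitted on the controls, Plk2 was 1.79-fold higher in PTZ45 than in Sal (log2 fold change 0.84, SE 0.07, adjusted p = 1.16e-26). Against kindled controls given saline the rise was 1.75-fold (0.81, SE 0.07, adjusted p = 2.37e-32). Plk2 was the 1 member of 4 called in each, where 1.17% and 1.25% of all genes tested were called. Both calls held with every other tool, scaling and left-out library that was tried. These comparisons share the Control PTZ45 libraries, so they are not independent of each other. Control PTZ45 was also run on another lane than Control Sal and Control PTZ0, so lane and treatment cannot be told apart in them.

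In CBP-ifKOs the same injection gave a Plk2 fold of 1.09 over Sal (0.12, SE 0.10, 95% interval -0.07 to 0.31, adjusted p = 0.9999), and the log2 value ran from 0.063 to 0.23 when 1 library was left out. It gave 1.15 over PTZ0 (0.20, SE 0.08, 95% interval 0.04 to 0.36, unadjusted p = 0.0131, adjusted p = 1.0). DESeq2 called 0 of the 4 members in either, with 1 and 2 at an unadjusted p under 0.05, and edgeR also called 0. Of all genes tested, 0.294% and 0.0872% were called. The comparison with PTZ0 was made within lane 5.

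The difference between these responses was tested directly. The log2 response of Plk2 to PTZ45 was smaller in CBP-ifKOs by 0.71 when counted from Sal (interaction -0.71, SE 0.13, adjusted p = 1.13e-05) and by 0.61 when counted from PTZ0 (interaction -0.61, SE 0.11, adjusted p = 9.56e-06). Plk2 was again the 1 member called, against 0.329% and 0.423% of all genes. Over 18 alternatives each, the interaction over Sal stayed between -0.78 and -0.60 and that over PTZ0 between -0.67 and -0.54, and each was called throughout. Without the choroid plexus libraries they were -0.76 (adjusted p = 0.00122) and -0.68 (adjusted p = 0.000376). Lane cannot be a term in these fits. Within lane 4, Control PTZ45 and CBP-ifKO Sal differed as above, 6196 and 6288 against 2872 to 3576, but by genotype and treatment together.

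The kindling injections, a week after the last of them, left no called difference in any member. In controls, PTZ0 against Sal within lane 3 gave log2 fold changes of 0.03 for Plk2 (SE 0.06), -0.13 for Plk3 (SE 0.25), 0.05 for Plk5 (SE 0.16) and -0.01 for Sipa1l1 (SE 0.14). In CBP-ifKOs they were -0.08 for Plk2 (SE 0.10), 0.06 for Plk3 (SE 0.29), 0.00 for Plk5 (SE 0.21) and -0.03 for Sipa1l1 (SE 0.10). DESeq2 called 0 of 4 in either genotype, none had an unadjusted p under 0.05, and edgeR called 0. Calls over all genes were 0.00843% and 0.0112%. The 95% interval for Plk2 ran from -0.09 to 0.14 in controls, while for Plk3 it reached from -0.62 to 0.36.

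**Figure D3:**
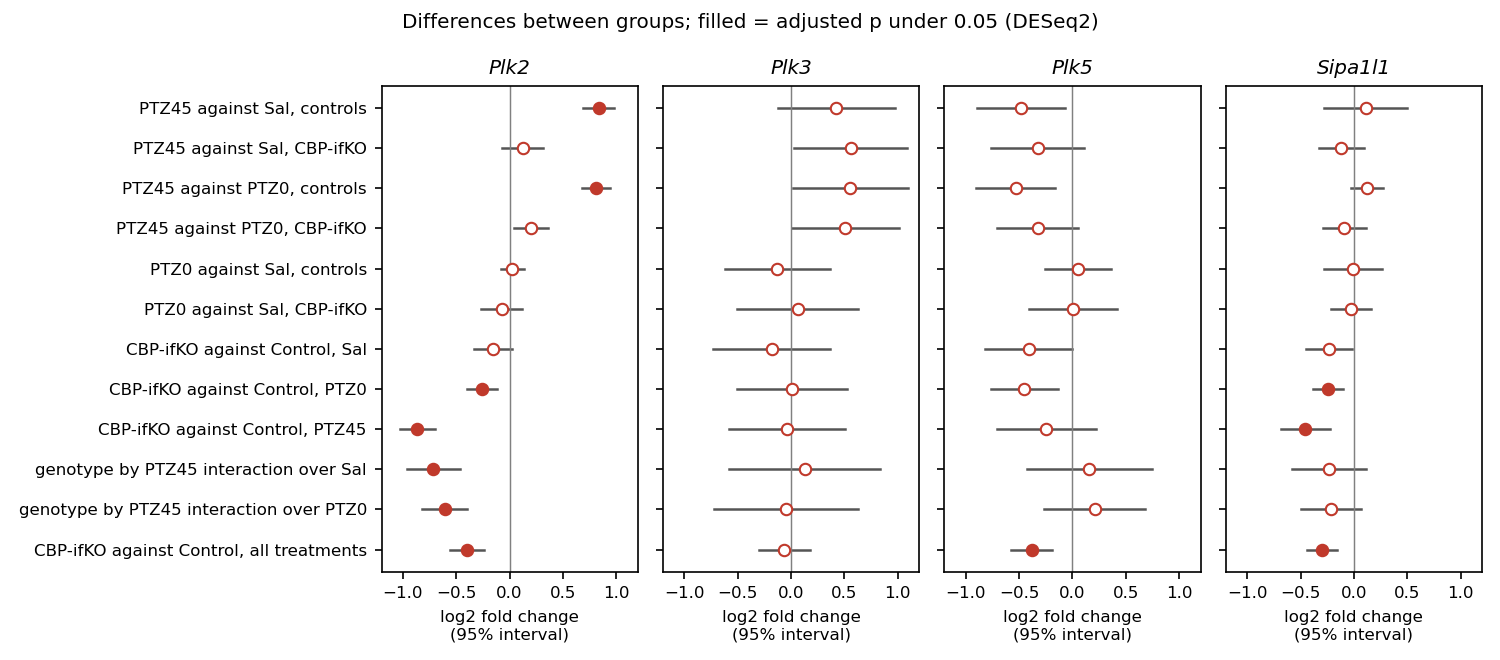
Log2 fold change of each member in the 12 comparisons, with 95% intervals as bars and filled circles where the DESeq2 adjusted p was under 0.05. Plk2 is called after PTZ45 in controls (0.84 and 0.81) and in both interactions (-0.71 and -0.61), Plk2, Plk5 and Sipa1l1 are called between genotypes over all treatments (-0.40, -0.38 and -0.30), and Plk3 in no comparison.

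Sipa1l1 RNA was lower in CBP-ifKOs than in controls over all treatments, and no change after PTZ was called. It stood at 3666, 4432 and 5067 normalized counts in Control Sal and at 3853, 4061 and 3348 in CBP-ifKO Sal, so these groups overlapped. Control PTZ0 had 4407, 4166 and 4495 against 4114, 3312 and 3624 in CBP-ifKO PTZ0, without overlap. Control PTZ45 had 5167 and 4334 against 3715, 3770 and 2880 in CBP-ifKO PTZ45, again without overlap. Over all treatments the controls averaged 4467 ± 479 (SD, n = 8) and CBP-ifKOs 3631 ± 394 (SD, n = 9). In the order of group means the 3 control groups came first and overlapped with each other, as did the 3 CBP-ifKO groups.

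With treatment as a term over all 17 libraries, Sipa1l1 was lower in CBP-ifKOs by 0.30 on the log2 scale (log2 fold change -0.30, SE 0.07, adjusted p = 0.000487), Plk2 by 0.40 (-0.40, SE 0.08, adjusted p = 2.58e-05) and Plk5 by 0.38 (-0.38, SE 0.10, adjusted p = 0.00132). These are 3 of the 4 members, in a comparison in which 19.3% of all genes were called. Lane was not a term, and within each treatment the genotypes were run on different lanes. The value for Plk2 averages unlike treatments: its genotype difference was -0.16 in Sal, -0.26 in PTZ0 and -0.86 in PTZ45. All 3 calls held with the other tools and scalings and without any single library. With the choroid plexus libraries left out, Plk5 was no longer called (-0.26, adjusted p = 0.112), whereas Plk2 (adjusted p = 0.0390) and Sipa1l1 (adjusted p = 0.0348) were.

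By treatment, the Sipa1l1 difference was -0.23 in Sal (SE 0.11, adjusted p = 0.397), -0.24 in PTZ0 (SE 0.07, adjusted p = 0.0187) and -0.46 in PTZ45 (SE 0.12, adjusted p = 0.00566). In Sal, DESeq2 and edgeR called 0 of the 4 members, 2 had an unadjusted p under 0.05, and 2.04% of all genes were called. In PTZ0, Plk2 (-0.26, SE 0.07, adjusted p = 0.00958) and Sipa1l1 were lower, 2 of 4 members where 6.68% of all genes were called. In PTZ45 the same 2 members were lower, Plk2 at a fold of 0.549 (-0.86, SE 0.09, adjusted p = 7.76e-22), where 3.07% of all genes were called. The PTZ0 calls of Plk2 and Sipa1l1 were lost with edgeR (adjusted p = 0.0569 and 0.0962) and without the choroid plexus libraries (0.868 and 0.415). Leaving out 1 library ended the Sipa1l1 call in PTZ0 for 5 of the 6 libraries, all but CBP-ifKO PTZ0 replicate 1, and the Plk2 call for 3 of them, Control PTZ0 replicates 2 and 3 and CBP-ifKO PTZ0 replicate 3. The PTZ45 call of Sipa1l1 was lost without Control PTZ45 replicate 1 (-0.33, adjusted p = 0.579) and with a GC correction (-0.46, adjusted p = 0.220).

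The response of Sipa1l1 to PTZ45 had log2 fold changes of 0.11 over Sal (SE 0.20, 95% interval -0.28 to 0.50) and 0.12 over PTZ0 (SE 0.08) in controls, and of -0.12 (SE 0.11) and -0.09 (SE 0.10) in CBP-ifKOs. None was called, with adjusted p from 0.752 to 1.0. The interactions, -0.23 over Sal (95% interval -0.58 to 0.11) and -0.22 over PTZ0 (95% interval -0.50 to 0.07), were not called either. Thus the 1.79-fold rise of Plk2 RNA in controls came with a Sipa1l1 change whose interval included 0, and the level of Sipa1l1 protein is not known from these data.

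Plk5 RNA was called lower in CBP-ifKOs over all treatments, but not without the choroid plexus libraries, and by DESeq2 in no single treatment. Its group means were lowest in PTZ45. Its normalized counts were 150, 210 and 163 in Control Sal and 97.4, 143 and 156 in CBP-ifKO Sal, which overlapped. Control PTZ0 had 171, 186 and 181 against 138, 128 and 129 in CBP-ifKO PTZ0, and Control PTZ45 127 and 121 against 107, 114 and 92.0 in CBP-ifKO PTZ45, both without overlap. The PTZ45 controls also lay below all Sal and PTZ0 controls. The log2 fold change of PTZ45 in controls was -0.48 over Sal (SE 0.21, unadjusted p = 0.0213, adjusted p = 0.480) and -0.53 over PTZ0 (SE 0.19, unadjusted p = 0.00499, adjusted p = 0.210), so neither was called with DESeq2, and edgeR called the latter (adjusted p = 0.0492).

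In CBP-ifKOs the Plk5 values of PTZ45 were -0.33 over both Sal (SE 0.22) and PTZ0 (SE 0.19), and the interactions were 0.16 (95% interval -0.43 to 0.75) and 0.21 (95% interval -0.27 to 0.68), none of them called. The genotype difference was -0.41 in Sal (adjusted p = 0.462), -0.45 in PTZ0 (adjusted p = 0.0645, and 0.0333 with edgeR) and -0.24 in PTZ45 (adjusted p = 0.829). At 69 to 211 raw counts per library, Plk5 was measured with less precision than Plk2 or Sipa1l1.

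Plk3 RNA was highest in the PTZ45 groups of both genotypes, but no difference was called. Its normalized counts were 50.6, 68.9 and 72.3 in Control Sal, 57.1, 65.6 and 52.4 in Control PTZ0 and 82.2 and 89.1 in Control PTZ45. CBP-ifKOs had 60.2, 39.4 and 63.6 in Sal, 65.7, 64.0 and 47.3 in PTZ0 and 67.3, 94.0 and 88.4 in PTZ45. In each genotype the PTZ45 libraries lay above all Sal and PTZ0 libraries. The log2 fold changes over Sal were 0.43 in controls (SE 0.28, unadjusted p = 0.127) and 0.56 in CBP-ifKOs (SE 0.27, unadjusted p = 0.0377), and over PTZ0 they were 0.56 (SE 0.28, unadjusted p = 0.0443) and 0.51 (SE 0.26, unadjusted p = 0.0478). Their adjusted p ranged from 0.577 to 1.0. The genotype difference over all treatments was -0.06 (SE 0.12, 95% interval -0.30 to 0.18, adjusted p = 0.784). The interactions, 0.13 and -0.05, had intervals wider than the response itself, so at this depth Plk3 could not be shown to respond alike or unlike in the genotypes.

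Markers of CA1 pyramidal cells moved with the genotype too. Wfs1, Fibcd1 and Mpped1 were all called lower in CBP-ifKOs in each treatment, with a median log2 fold change of -0.49 over all treatments, and their sum was 3572 to 4291 normalized counts in controls and 2405 to 3162 in CBP-ifKOs. None of the excitatory neuron markers Slc17a7, Camk2a and Neurod6 was called with DESeq2 or edgeR over all treatments, 1 had an unadjusted p under 0.05, and their sum was 25783 to 33922 in controls and 29688 to 38800 in CBP-ifKOs. The dentate markers were mixed, with Tdo2 lower, Prox1 higher and Dsp not called. In CA3, Cpne4 was lower and Bok and Iyd were not called. Of the inhibitory neuron markers, Gad1 was lower by 0.14 (-0.14, adjusted p = 1.11e-05) and Gad2 and Slc32a1 were not called. Of the astrocyte markers, Slc1a3 (-0.18, adjusted p = 1.01e-05) and Gja1 (-0.11, adjusted p = 0.0454) were lower and Aqp4 was not called, with a sum of 11643 to 12918 in controls and 10338 to 12466 in CBP-ifKOs. After PTZ45 none of the 15 markers of excitatory, dentate, CA1, CA3 and inhibitory neurons was called with DESeq2 or edgeR in either genotype, over Sal or over PTZ0, where 1.17% and 1.25% of all genes were called in controls and 0.294% and 0.0872% in CBP-ifKOs. Without adjustment, 1 and 3 of the 15 had a p under 0.05 in controls, and 3 and 1 in CBP-ifKOs. Neurod6 was among them each time, with log2 fold changes of 0.28 and 0.20 in controls and 0.25 and 0.28 in CBP-ifKOs, and the others were Bok (-0.41) and Gad2 (0.16) over PTZ0 in controls and Dsp (-0.28) and Camk2a (-0.18) over Sal in CBP-ifKOs. In tissue of mixed cells, fewer cells of a type and less RNA per cell cannot be told apart, and the part of these markers in the lower Plk2, Plk5 and Sipa1l1 was not tested.

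The members did not follow each other closely over the 17 libraries. On log2 normalized counts, with 1 added, Pearson's r was 0.57 for Plk2 with Plk3, 0.51 for Plk5 with Sipa1l1, 0.40 for Plk2 with Sipa1l1, 0.02 for Plk3 with Sipa1l1, -0.02 for Plk2 with Plk5 and -0.34 for Plk3 with Plk5. These are descriptions over libraries that share groups and scaling.

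Of 13037 other genes averaging 50 or more normalized counts over the libraries, those most like Plk2 by Pearson's r were Eif4a1, a translation factor (0.97), Rheb, a GTPase that activates mTORC1 (0.97), Dusp6, a phosphatase of ERK (0.96), Gm13889 (0.96) and Junb, an AP-1 subunit (0.96). Without the 2 Control PTZ45 libraries these values fell to between 0.70 and 0.81, so the likeness rested largely on that group. By Spearman's rho, none of them was among the 5 most alike. For Sipa1l1 they were Plxna4, Kcnq3, Plxna2, Prkce and Spred2 (r from 0.94 to 0.96), and without Control PTZ45 the values were 0.93 to 0.96. Plexins A2 and A4 are semaphorin receptors, Kcnq3 is a subunit of the M-type potassium channel, and Prkce is protein kinase C epsilon. Plk5 was most like Acvr1b, an activin receptor, Zfyve28, Lin7b, a synaptic scaffold, Grm2, a metabotropic glutamate receptor, and Nck2, an adaptor protein (r from 0.89 to 0.92). Plk3 had no gene as close, its 5 being Slc25a20, Otud4, Sat1, Gm37420 and Apold1 (r from 0.76 to 0.80).

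The other genes of the pathway, 46 in all, were taken from lists by role. In controls PTZ45 over Sal, Jun, an AP-1 subunit that Plk3 can phosphorylate, was higher (0.95, SE 0.12, adjusted p = 2.61e-13) and Dlgap3, a postsynaptic scaffold, was lower (-0.47, SE 0.10, adjusted p = 0.000704), and the other 44 were not called, where 1.17% of all genes were. The median over the 46 was -0.03, against 0.01 over all genes tested. Over PTZ0, Jun alone was called (0.98, SE 0.10, adjusted p = 1.43e-18), against 1.25% of all genes. In CBP-ifKOs, PTZ45 over Sal called Dlgap3 (-0.66, adjusted p = 4.92e-05) and Shank3, a scaffold of the postsynaptic density (-0.45, adjusted p = 0.00771), both lower, where 0.294% of all genes were called, and edgeR called neither. PTZ45 over PTZ0 called 0, with 6 at an unadjusted p under 0.05 and 0 by edgeR. PTZ0 against Sal called 0 of 46 in both genotypes, with 2 and 1 at an unadjusted p under 0.05 and 0 by edgeR.

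Jun was the 1 gene of the 46 called in each interaction of genotype and PTZ45, where 0.329% (over Sal) and 0.423% (over PTZ0) of all genes were called, and 2 and 1 of the 46 had an unadjusted p under 0.05. It averaged 588 normalized counts in Control Sal and 1138 in Control PTZ45, against 460 in CBP-ifKO Sal and 410 in CBP-ifKO PTZ45. Its interaction was -1.12 over Sal (SE 0.17, adjusted p = 3.9e-08) and -1.08 over PTZ0 (SE 0.16, adjusted p = 7.69e-09), the same direction as that of Plk2. Every gene called in these interactions had that direction, 69 over Sal and 82 over PTZ0.

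Between genotypes over all treatments, 18 of the 46 were lower in CBP-ifKOs, 4 were higher and 24 were not called, with a median of -0.12 against 0.01 over all genes tested. Of the 18682 genes tested, 19.3% were called, 2157 lower and 1449 higher. Among the 13 Rap GTPases, their exchange factors and other RapGAPs, 9 were lower and none higher. The lower genes included Rap1gap2, a GTPase-activating protein of Rap1 (-0.41, SE 0.04, adjusted p = 1.59e-25), Rap2b (-0.32, SE 0.05) and Rap2a (-0.22, SE 0.03), both Rap GTPases, Rap1gap (-0.28, SE 0.04) and Rapgef5, an exchange factor (-0.22, SE 0.03). Sipa1, Sipa1l2 and Sipa1l3, the relatives of Sipa1l1, lay between -0.02 and 0.09. None of the 3 was called with DESeq2 or edgeR, and none had an unadjusted p under 0.05.

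In the same comparison, with 19.3% of all genes called and a median of 0.01 over them, the 9 postsynaptic partners of Sipa1l1 had a median of -0.19 and the 8 genes for priming and degrading it a median of -0.06. Of the partners, 5 were lower and none higher: Dlgap3 (-0.34, SE 0.07), Dlg4, which encodes PSD-95 (-0.27, SE 0.05), Shank3 (-0.22, SE 0.07), Dlgap4 (-0.21, SE 0.07) and Dlgap1 (-0.19, SE 0.04). Among other synaptic substrates of Plk2, Nsf, the ATPase that recycles SNARE complexes and binds AMPA receptors (-0.28, SE 0.03, adjusted p = 1.06e-22), and Rapgef2, an exchange factor for Rap (-0.14, SE 0.03), were lower, and Rasgrf1 was not called. Of those for priming and degradation, Cdk5r1, the p35 activator of Cdk5 (-0.14, SE 0.04), and Fbxw11, a beta-TrCP paralogue (-0.13, SE 0.05), were lower, and Cdk5, Cdk5r2, Btrc, Skp1a, Cul1 and Rbx1 were not called.

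The 4 higher genes were Plk4 (0.42, SE 0.10, adjusted p = 0.000586), Cdc25a, a cell cycle phosphatase (0.47, SE 0.10), Trp53 (0.36, SE 0.10) and Cib1, a calcium-binding partner of Plk3 (0.29, SE 0.11). Plk4 averaged 82.7 ± 12.4 normalized counts in controls (SD, n = 8) and 109 ± 9.94 in CBP-ifKOs (SD, n = 9), a difference opposite in sign to those of Plk2 and Plk5. Plk1 had too few counts for an adjusted p in 7 of the 12 comparisons and was not called in the other 5.

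Within single treatments fewer pathway genes were called, 3 of 46 in Sal (Rap1gap2, Nsf and Rapgef5), 10 in PTZ0 and 6 in PTZ45, where 2.04%, 6.68% and 3.07% of all genes were called. All of these pathway genes were lower in CBP-ifKOs, as were most calls over all genes, with 266 of 306 lower in Sal, 670 of 852 in PTZ0 and 430 of 468 in PTZ45. With edgeR, 1, 8 and 3 of the 46 were called. The PTZ0 genes were Rap1gap2 (-0.42), Jun (-0.40), Rap2b (-0.36), Rap1gap (-0.31), Dlg4 (-0.27) and 5 others. The PTZ45 genes were Jun (-1.47), Dlgap3 (-0.48), Rap1gap2 (-0.44), Dlg4 (-0.33), Nsf (-0.30) and Dlgap1 (-0.29). Rap1gap2 was called lower in all 3 treatments by both tools. Nsf was called in all 3 by DESeq2 and by edgeR in PTZ0 alone (edgeR adjusted p = 0.106 in Sal and 0.0668 in PTZ45). Without the choroid plexus libraries the counts were 1 in PTZ0, 2 in PTZ45 and 13 over all treatments. The shares of all genes given above belong to the main fits and not to these smaller ones.

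**Figure D4:**
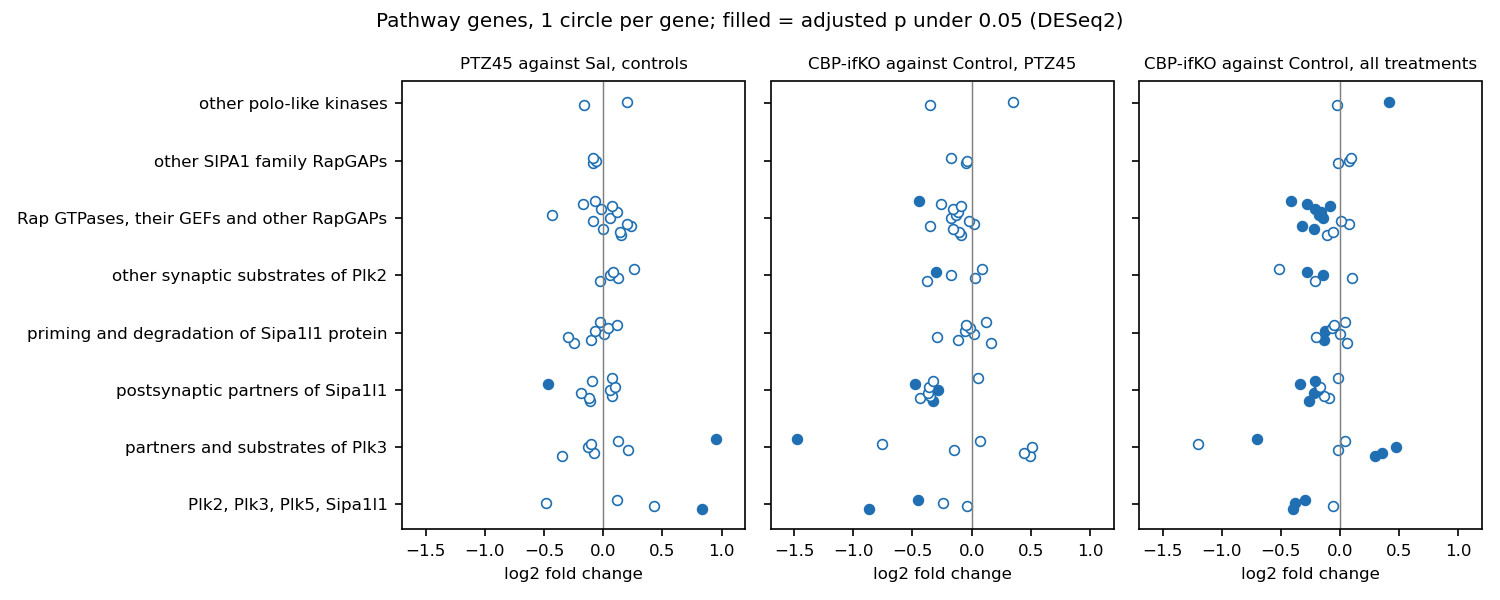
Log2 fold changes of the pathway genes by list and of the 4 members, 1 circle per gene, filled where the DESeq2 adjusted p was under 0.05. The panels are PTZ45 over Sal in controls, CBP-ifKO against Control in PTZ45, and CBP-ifKO against Control over all treatments. In the last panel 18 of 46 list genes are filled on the lower side and 4 on the higher side.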

How the data were processed

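The authors trimmed single-end reads of 50 bases (FastQC 0.11.8 and Trim Galore 0.6.4 are named in the submitters' processing notes), aligned them with STAR 2.6.1 to mm10 (GRCm38), kept those with a mapping quality over 10 and counted them on Ensembl 99 exons with Rsubread. The deposited values are raw counts per gene and were not normalized. Of 18 count columns, 1 matched no sample and was not used. The used columns are numbered within groups without a gap, except in Control PTZ45, where the middle number is absent. The labels do not say whether the unused column is that library. The methods describe the saline-treated samples of the kindling experiment as hippocampi of individual male mice. Where a group's libraries are not stated to be separate mice, p-values measure only the spread between libraries. Gene symbols and positions came from GENCODE M21 on the same build, in which 99.6% of identifiers were found, and lengths from the deposited table.

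The Wald test of DESeq2 1.42.0 in R 4.3.3, the test the study names, was run two-sided on genes with at least 1 count, for each pair of groups alone, for the interactions on 11 libraries, and for genotype on 17 with treatment as a term. Adjusted p-values (Benjamini-Hochberg, over all genes tested, with independent filtering) under 0.05 made a call. Intervals are the log2 fold change ± 1.96 SE. The alternatives were edgeR 4.0.16 (quasi-likelihood), TMM size factors, a filter of 10 counts in 2 libraries, 1 fit of all libraries, 1 surrogate variable (sva 3.50.0), a block for the replicate number, a GC correction and leaving out each library. Leaving out the choroid plexus libraries was added after the data were seen. The fits were tested on simulated data.

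The 4 members and the lists were chosen with earlier results of these data known. Named are the members, Crebbp, at most 5 called genes per list and comparison, and the 5 genes most like each member by Pearson's r. No library was a copy of another of its group: replicates differed by 2.31 to 18.01 chi-square per degree of freedom. Some genes of the lists are not reported here by name.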

Additional observations from a re-analysis of the deposited data

Results flagged for a closer look

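The response of Plk2 to PTZ45 differed between controls and CBP-ifKOs in a direct test, with an interaction of -0.71 over Sal and -0.61 over PTZ0 on the log2 scale. Both Control PTZ45 libraries lay above all other control libraries for Plk2, and the CBP-ifKO PTZ45 libraries overlapped with those of CBP-ifKO Sal and PTZ0. The Jun response differed in the same direction, which every gene called in these tests had, with an interaction of -1.12 over Sal and -1.08 over PTZ0. Control PTZ45 was run on another lane than Control Sal and Control PTZ0, so lane and treatment cannot be told apart in the controls of these tests, while CBP-ifKO PTZ0 and PTZ45 shared a lane.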

How the results depend on the processing

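Over 724 refits of the 48 member results, 670 kept both direction and call, 17 lost a call, 5 gained one and 32 changed sign between values that were not called. With edgeR, Plk2 (-0.26) and Sipa1l1 (-0.24) in PTZ0 between genotypes lost their calls, and Plk5 gained one there (-0.45) and in PTZ45 over PTZ0 in controls (-0.53). With 1 fit of all libraries the PTZ0 call of Sipa1l1 was lost (-0.24). A GC correction ended the PTZ45 genotype call of Sipa1l1 (-0.46). Without the choroid plexus libraries, an alternative added after the data were seen, the PTZ0 calls of Plk2 (-0.17) and Sipa1l1 (-0.26) and the overall call of Plk5 (-0.26) were lost, and the interaction of Plk5 over Sal changed sign (-0.26), in fits of fewer samples. With 1 surrogate variable Plk5 in PTZ0 over Sal in CBP-ifKOs (-0.005) and Plk3 between genotypes in PTZ0 (-0.005) changed sign.

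The replicate numbers do not pair the samples: same-numbered libraries of different groups had correlations of deviations from -0.52 to 0.53 (median -0.06), and every same-numbered pair was over 0.1 in 3 of 15 pairs of groups. The latter include Control PTZ0 with CBP-ifKO PTZ45 (0.16, 0.53 and 0.15), which both enter the interaction over PTZ0, but no pair of groups of 3 that was compared directly. With the replicate number as a block, Sipa1l1 between genotypes in PTZ45 was not called (-0.34, adjusted p = 0.670), and Sipa1l1 in PTZ0 over Sal in controls (0.001) and the Plk3 interaction over PTZ0 (0.003) changed sign. The Plk2 calls held under the block.

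Leaving out 1 library at a time gave Sipa1l1 ranges of -0.02 to 0.23 for PTZ45 over Sal and -0.009 to 0.25 over PTZ0 in controls, -0.16 to 0.024 over PTZ0 in CBP-ifKOs, -0.13 to 0.11 and -0.11 to 0.045 for PTZ0 over Sal in controls and CBP-ifKOs, and -0.35 to -0.12, -0.33 to -0.18 and -0.58 to -0.33 between genotypes in Sal, PTZ0 and PTZ45. Plk2 ranged from -0.14 to 0.033 for PTZ0 over Sal in CBP-ifKOs, from -0.27 to -0.10 between genotypes in Sal and from -0.33 to -0.20 in PTZ0. Plk3 ranged from -0.081 to 0.21 for PTZ0 over Sal in CBP-ifKOs, from -0.069 to 0.16 and -0.14 to 0.10 between genotypes in PTZ0 and PTZ45, and from -0.20 to 0.085 in the interaction over PTZ0. Plk5 ranged from -0.05 to 0.20 and -0.19 to 0.17 for PTZ0 over Sal in controls and CBP-ifKOs, and from -0.046 to 0.34 in the interaction over Sal. Values that were not called also moved by over 1.5 times, among them those for the interactions of Sipa1l1 (-0.35 to -0.10 over Sal and -0.34 to -0.083 over PTZ0), for Plk5 between genotypes in Sal (-0.58 to -0.21) and for PTZ45 over Sal in CBP-ifKOs (Plk5 -0.53 to -0.16, Plk2 0.063 to 0.23). The PTZ0 genotype call of Plk2 was lost without Control PTZ0 replicate 2 or 3 or CBP-ifKO PTZ0 replicate 3 (adjusted p up to 0.184), and that of Sipa1l1 without any Control PTZ0 library or CBP-ifKO PTZ0 replicate 2 or 3 (up to 0.199). A call was gained by Plk2 in Sal without CBP-ifKO replicate 3 (adjusted p = 0.0140), by Sipa1l1 in Sal without Control replicate 1 (0.0496) and by Sipa1l1 for PTZ45 over PTZ0 in controls without Control PTZ45 replicate 2 (0.0214). The cause of these changes was not tested. Calls over all genes ranged widely, for example from 73 to 243 for PTZ45 over Sal in controls (main 204), from 94 to 499 over PTZ0 (225) and from 160 to 996 between genotypes in PTZ0 (852). Plk3 had 19 to 94 counts per library and Plk5 69 to 211.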
